A study of Caenorhabditis elegans with 30 samples.

Results

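Lysosomal lipases release fatty acids from lipids that have been delivered to the lysosome. In *C. elegans* they form the LIPL family, related to mammalian lysosomal acid lipase. The genes *lipl-1* to *lipl-7* were taken as the rows of the gene count table with these names, 7 of 46934 genes, and were followed across all 15 groups of the study. Worms of all groups carried *glp-1(e2141)*, a temperature-sensitive allele that leaves adults grown at 25 °C without a germline, so the controls were germline-less as well. The mutants were *glp-1(e2141);set-26(tm2467)* and *glp-1(e2141);hcf-1(pk924)*, called *set-26(-)* and *hcf-1(-)* below, and the controls were *glp-1(e2141)* alone. SET-26 is a chromatin factor that binds methylated histone H3, HCF-1 is a transcriptional co-regulator, and HDA-1 is a histone deacetylase. Each genotype was sampled on day 1 of adulthood, when all worms fed on bacteria with the empty vector L4440 (EV), and on days 3 and 12 after feeding on either *hda-1* RNAi or EV bacteria, with RNAi begun at day 1. Each group had 2 libraries, described as biological replicates, which gave 30 in all.

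In germline-less worms LIPL-4 acts in the intestine and supports long life. Fatty acid derivatives made with LIPL-4 are carried to the nucleus by the lipid binding protein LBP-8, where they act on the nuclear hormone receptors NHR-49 and NHR-80. The transcription factor HLH-30, the worm counterpart of TFEB, raises *lipl-1* and *lipl-3* when food is short, and MXL-3 holds the same genes down in fed worms. The RNA came from whole animals, so fewer intestinal cells and less RNA per cell cannot be told apart in any result given here.

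Counts came from 3′ mRNA sequencing (QuantSeq), in which only the 3′ end of a transcript is read. Library totals ran between 6045498 and 17748121 reads, with a median of 8323966. Levels are given as CPM, that is the reads of a gene scaled to a common library size, after TMM scaling over the 30 libraries. A gene gives about 1 read per transcript in this method whatever its length, but capture differs between genes, so levels are compared between samples and not between genes. Summed CPM of 10 germline markers lay between 8.04 and 46.4 and differed between groups. At day 12 on EV the sums were 16.5 to 19.8 in *set-26(-)* and 14.3 to 17.1 in *hcf-1(-)*, against 32.9 to 46.4 in controls. At day 1 they were instead higher in *hcf-1(-)*, at 24.4 to 26.1 against 16.5 to 17.4 in controls. Reads on *hda-1* were higher in the 12 libraries labelled *hda-1* RNAi (252 to 1914 CPM) than in the 18 EV libraries (20.5 to 117 CPM), so a knockdown cannot be read from these counts. Reads on *hcf-1* were lower in *hcf-1(-)* libraries (1.07 to 3.34 CPM) than in controls (4.33 to 12.7 CPM). Reads on *set-26* were not lower in *set-26(-)* libraries, with 11.9 to 23.3 CPM against 7.63 to 21.3 CPM in controls.

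All 7 genes were protein coding, and 6 lay on chromosome V of WBcel235. *lipl-1* (WBGene00010062) spanned V:12919986-12921692 on the plus strand, *lipl-2* (WBGene00009773) V:9791567-9793241 on the plus strand, and *lipl-3* (WBGene00020016) V:521595-524218 on the minus strand. *lipl-4* (WBGene00019376) spanned V:6550171-6552186 on the plus strand, *lipl-5* (WBGene00022642) V:385746-387740 on the plus strand, and *lipl-6* (WBGene00021963) V:6931475-6934312 on the minus strand. *lipl-7* (WBGene00008510) lay apart at IV:10239278-10241823 on the minus strand. The end of *lipl-3* overlapped *srw-107* on the same strand by 23 bp, and *srw-107* had 0 to 3 reads in any library. *lipl-4* overlapped a tRNA and a noncoding RNA on the opposite strand, both with 0 reads.

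The 7 genes differed widely in depth. *lipl-1*, *lipl-2*, *lipl-5* and *lipl-7* had more than 10 reads in all 30 libraries, with medians of 22.6, 35.9, 359 and 40.2 CPM. *lipl-4* had a median of 6.66 CPM and passed 10 reads in 29 libraries. *lipl-3* had 2 to 37 reads and passed 10 in 16 libraries, and *lipl-6* had 0 to 35 reads and passed 10 in 11. Values of the last pair are therefore close to the counting limit.

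**Figure D1:**
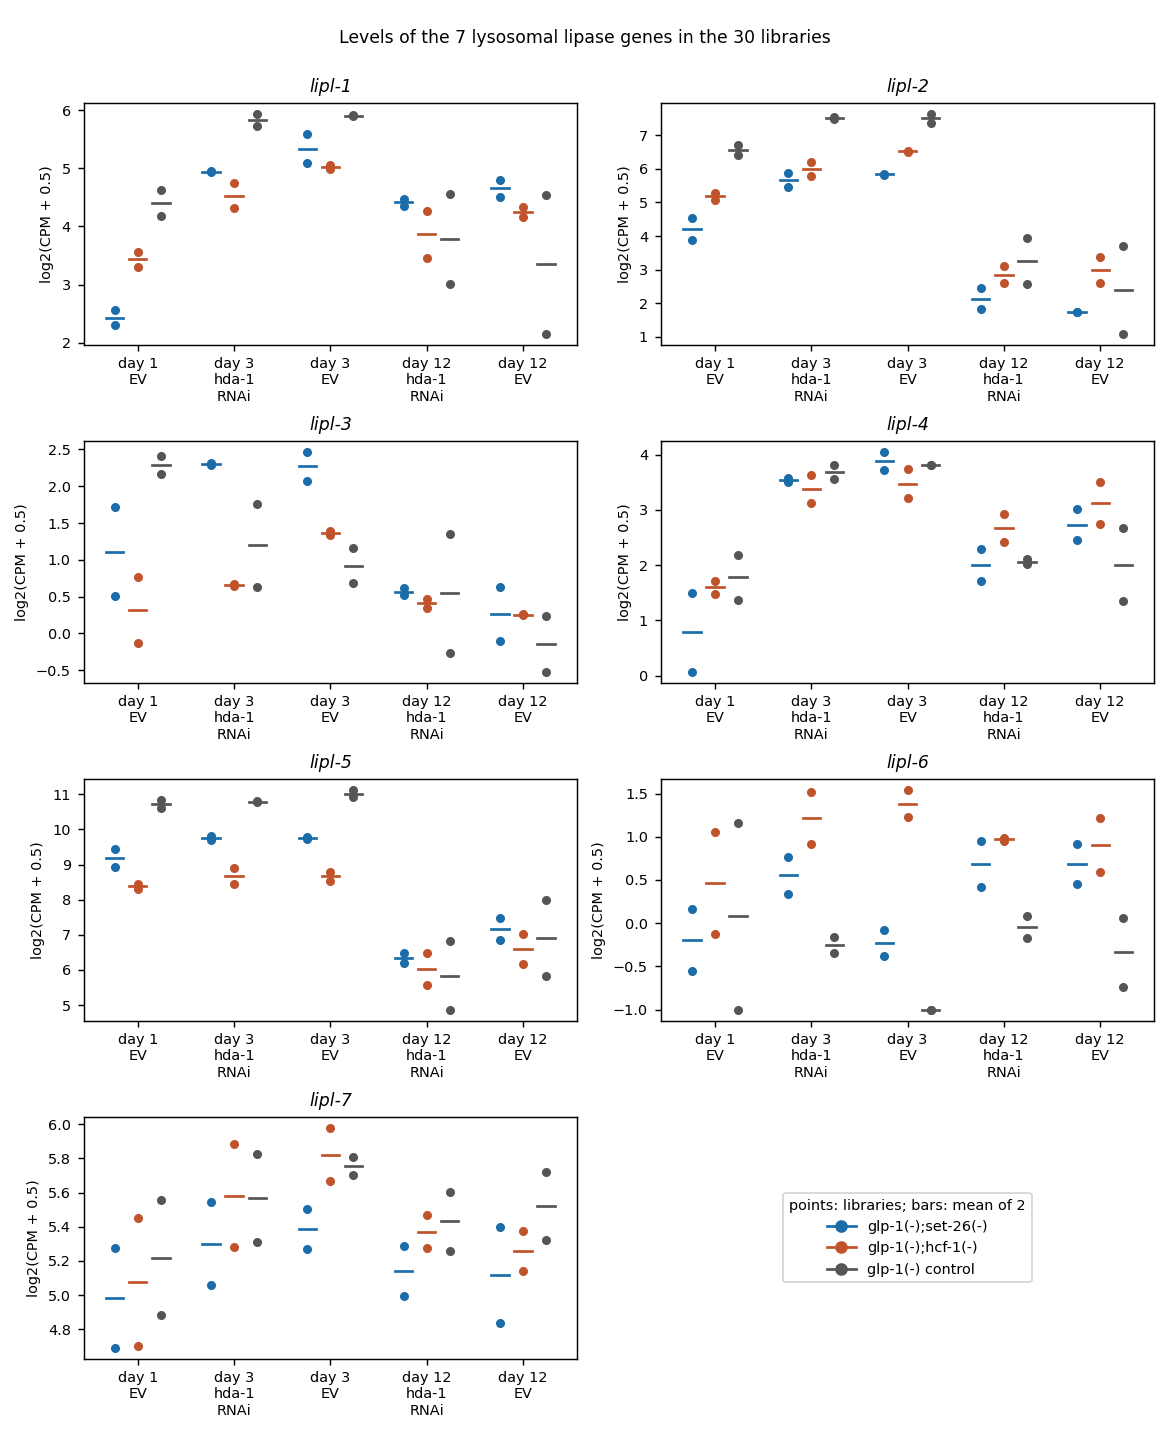
Levels of the 7 lysosomal lipase genes in each of the 30 libraries, as log2(CPM + 0.5), by day and diet. Points are libraries and bars are means of 2. *lipl-5* was lower in both mutants than in controls at days 1 and 3, and *lipl-7* stayed between 25.4 and 62.5 CPM throughout.

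The comparison of mutants with controls asks which of these genes depend on SET-26 or HCF-1 in the soma. *lipl-2* and *lipl-5* were lower in both mutants in every comparison at days 1 and 3, *lipl-1* was lower in 4 of these 6, and *lipl-4* and *lipl-7* passed the test in none. At day 12 no member passed. Calls here are adjusted p-values under 0.05 in edgeR's quasi-likelihood test, adjusted by Benjamini-Hochberg over all genes tested. Both mutants were set against the same control libraries within a day and diet, so their values are not independent of each other.

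*lipl-5*, whose RNA is also known to rise on fasting, was lower in both mutants. At day 1 it had 491 and 700.4 CPM in *set-26(-)* and 349 and 318 CPM in *hcf-1(-)*, against 1823 and 1562 CPM in controls. Neither mutant overlapped the controls. The log2 fold change was -1.51 ± 0.24 (SE, n = 2 per group; edgeR adjusted p = 0.0097) in *set-26(-)* and -2.30 ± 0.25 (edgeR adjusted p = 0.0015) in *hcf-1(-)*. On *hda-1* RNAi at day 3 the levels were 835 and 902 CPM in *set-26(-)* and 348 and 475 CPM in *hcf-1(-)*, against 1740.3 and 1779.6 CPM in controls. On EV at day 3 they were 880.5 and 853 CPM in *set-26(-)* and 369 and 443 CPM in *hcf-1(-)*, against 2222 and 1943 CPM in controls. Again no mutant library reached a control library. The fold changes were -1.01 ± 0.18 and -1.25 ± 0.17 in *set-26(-)* and -2.08 ± 0.18 and -2.35 ± 0.17 in *hcf-1(-)*, on *hda-1* RNAi and EV in that order (edgeR adjusted p from 4.15e-08 to 0.00317). On each diet the day 3 call in *set-26(-)* held in 8 of 9 alternative runs, which are described under the processing. That in *hcf-1(-)* held in 9 of 9. Without *set-26(-)* replicate 1, the day 1 value in *set-26(-)* was -1.29 (adjusted p = 0.0692).

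*lipl-2* showed the same direction with the mutants in the other order. At day 1 it had 14.3 and 22.9 CPM in *set-26(-)* and 38.5 and 33.4 CPM in *hcf-1(-)*, against 84.2 and 104.1 CPM in controls. The groups were fully separate, with a level in *set-26(-)* of 0.198 times that of controls (log2 fold change -2.33 ± 0.27, edgeR adjusted p = 0.00247) and a log2 fold change of -1.35 ± 0.26 in *hcf-1(-)* (edgeR adjusted p = 0.0154). Leaving out *hcf-1(-)* replicate 1 or 2 kept the direction of the *hcf-1(-)* value but not the call (adjusted p = 0.107 and 0.123). At day 3 on *hda-1* RNAi it had 43.4 and 58.7 CPM in *set-26(-)* and 55.1 and 72.8 CPM in *hcf-1(-)*, against 187 and 179 CPM in controls. On EV at the same age it had 57.6 and 55.4 CPM in *set-26(-)* and 89.4 and 92.6 CPM in *hcf-1(-)*, against 197 and 165 CPM in controls. Mutant and control libraries did not overlap on either diet. The day 3 fold changes were -1.83 ± 0.21 on *hda-1* RNAi and -1.67 ± 0.17 on EV in *set-26(-)*, and -1.51 ± 0.21 and -0.99 ± 0.17 in *hcf-1(-)* (edgeR adjusted p from 2.86e-06 to 0.000765). The *hcf-1(-)* call on EV held in 8 of 9 alternative runs, and the other day 3 calls in 9 of 9.

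*lipl-1*, one of the genes that HLH-30 raises and MXL-3 holds down, was lowest in *set-26(-)* at day 1. It had 4.41 and 5.41 CPM in *set-26(-)* and 9.34 and 11.4 CPM in *hcf-1(-)*, against 17.6 and 24.3 CPM in controls. The *set-26(-)* level was 0.236 times that of controls (log2 fold change -2.08 ± 0.32, edgeR adjusted p = 0.00786). In *hcf-1(-)* both libraries were also below both controls, but the difference of -0.97 ± 0.30 did not pass (edgeR adjusted p = 0.0648). Without *set-26(-)* replicate 1 the *set-26(-)* value was -1.96 (adjusted p = 0.0799).

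*lipl-1* at day 3 on *hda-1* RNAi had 30.1 and 30.4 CPM in *set-26(-)* and 19.5 and 26.2 CPM in *hcf-1(-)*, against 60.5 and 52.5 CPM in controls. The log2 fold changes were -0.89 ± 0.20 in *set-26(-)* (edgeR adjusted p = 0.0152) and -1.30 ± 0.20 in *hcf-1(-)* (edgeR adjusted p = 0.00184). The *set-26(-)* call was lost when either library of either group was left out (adjusted p from 0.0603 to 0.133). On EV at the same age it had 47.4 and 33.6 CPM in *set-26(-)* and 31.3 and 32.8 CPM in *hcf-1(-)*, against 59.8 and 59.0 CPM in controls. The value in *hcf-1(-)* was -0.88 ± 0.20 (edgeR adjusted p = 0.00526), while that in *set-26(-)*, -0.54 ± 0.20, did not pass (edgeR adjusted p = 0.0776). On each diet the day 3 call in *hcf-1(-)* held in 8 of 9 alternative runs. That in *set-26(-)* on *hda-1* RNAi held in 4 of 9.

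Set against the background of all genes, 3 of 6 members tested at day 1 were lower in *set-26(-)* where 4.19% of all genes tested were, and 2 of 6 were lower in *hcf-1(-)* where 5.84% were. At day 3 on *hda-1* RNAi 3 of 7 members were lower in each mutant, beside 3.68% of all genes in *set-26(-)* and 5.54% in *hcf-1(-)*. At day 3 on EV 2 of 7 were lower and 1 higher in *set-26(-)*, beside 6.04% lower and 8.17% higher among all genes. In *hcf-1(-)* 3 of 7 were lower and 1 higher, beside 7.29% and 6.81%, and the higher one, *lipl-6*, passed the filter on low counts only through its *hcf-1(-)* libraries. The median log2 fold change of the members tested at day 1 was -1.37 in *set-26(-)* and -1.16 in *hcf-1(-)*, and that of all genes was 0.03 and 0.04. The members were chosen with earlier results of these data known, so their shares beside all genes are a description.

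**Figure D2:**
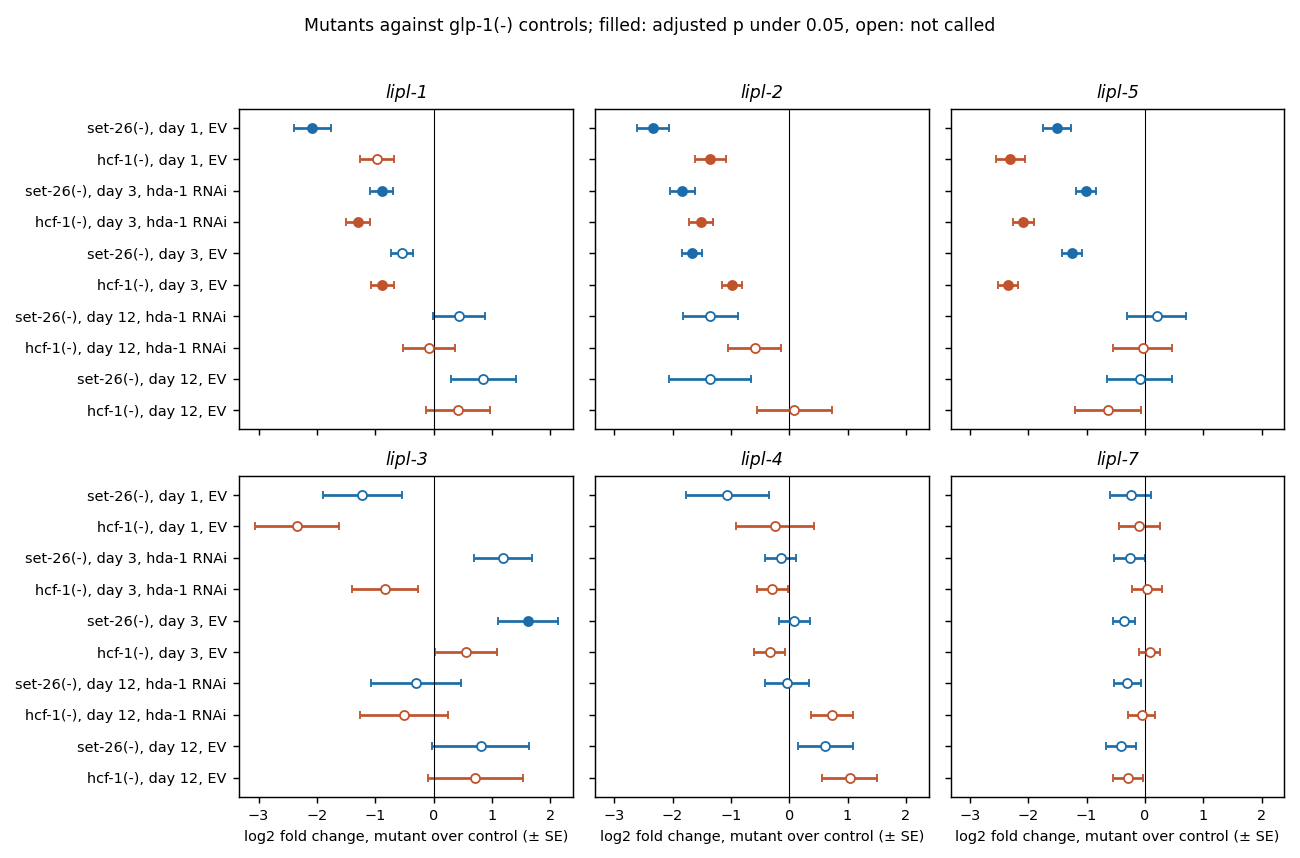
Log2 fold change of each mutant over controls, with standard errors, for 6 members by day and diet. Filled points passed an adjusted p of 0.05 and open points did not. *lipl-2* and *lipl-5* were filled at days 1 and 3 in both mutants, and no point was filled at day 12. *lipl-6* is left out because its controls had 0 reads at day 3 on EV.

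*lipl-4*, the lipase tied to the long life of germline-less worms, did not pass in any of the 10 comparisons with controls. At day 1 it had 0.552 and 2.32 CPM in *set-26(-)* and 2.79 and 2.30 CPM in *hcf-1(-)*, against 4.06 and 2.09 CPM in controls, which is 3 to 21 reads per library. The groups overlapped, except that *set-26(-)* replicate 1 was below all others with 3 reads. At day 3 on *hda-1* RNAi it had 10.8 and 11.5 CPM in *set-26(-)* and 11.8 and 8.26 CPM in *hcf-1(-)*, against 13.6 and 11.3 CPM in controls. On EV at the same age it had 15.99 and 12.6 CPM in *set-26(-)* and 12.8 and 8.72 CPM in *hcf-1(-)*, against 13.6 and 13.5 CPM in controls. The differences at day 3 were between -0.34 and 0.09 on the log2 scale, with standard errors of 0.26 to 0.27. At day 1 the standard errors were 0.67 and 0.72, so differences there were measured far less closely.

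*lipl-7* varied within narrow limits. Its 30 libraries lay between 25.4 and 62.5 CPM. Replicate 2 was above replicate 1 in every group. Differences between mutants and controls ran from -0.41 to 0.08 on the log2 scale, and the smallest edgeR adjusted p was 0.257 (n = 2 per group).

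*lipl-3*, the other fasting-induced gene, moved in a different direction in *set-26(-)* at day 3. On EV it had 5.01 and 3.72 CPM in *set-26(-)* and 2.03 and 2.13 CPM in *hcf-1(-)*, against 1.74 and 1.10 CPM in controls. Both *set-26(-)* libraries were above all others, 1.62 ± 0.51 higher than controls on the log2 scale (edgeR adjusted p = 0.0429). This call was lost when any library of either group was left out (adjusted p from 0.0884 to 0.277) and by DESeq2 (adjusted p = 0.0972). At day 1 controls were instead the highest, with 0.919 and 2.78 CPM in *set-26(-)* and 0.418 and 1.21 CPM in *hcf-1(-)*, against 4.84 and 3.99 CPM in controls. Neither difference at day 1 passed, at -1.22 ± 0.68 in *set-26(-)* (edgeR adjusted p = 0.301) and -2.35 ± 0.72 in *hcf-1(-)* (edgeR adjusted p = 0.0672). DESeq2 called that in *hcf-1(-)* (adjusted p = 0.0451). *lipl-3* had 25 and 21 reads in controls and 3 and 10 reads in *hcf-1(-)* at day 1. Without the control libraries it would not have passed the filter on low counts, so this call is no independent support.

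*lipl-6* had few reads in every library, and its highest counts were in mutants. At day 12 it had 14 and 9 reads in *set-26(-)* and 13 and 35 in *hcf-1(-)*, against 4 and 5 in controls on *hda-1* RNAi, and 10 and 16 in *set-26(-)* and 19 and 21 in *hcf-1(-)*, against 1 and 4 in controls on EV. On EV at day 3 it had 19 and 19 reads in *hcf-1(-)* and 2 and 4 reads in *set-26(-)*, against 0 and 0 reads in controls. With a floor of 3 reads per library, *hcf-1(-)* was at least 4.49-fold higher than controls. It entered this fit only through the *hcf-1(-)* libraries, so its call there is no independent support. On *hda-1* RNAi at day 3 it had 9 and 6 reads in *set-26(-)* and 14 and 20 reads in *hcf-1(-)*, against 3 and 2 reads in controls, and neither difference passed. At day 1 it was not tested, and 1 control library had 9 reads and the other 0.

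The mutants were also compared with each other. At day 1 no member of 6 passed in edgeR or in DESeq2, 3 had an unadjusted p under 0.05, and 1.03% of all genes were called. At day 3 on EV *lipl-5* was lower in *hcf-1(-)* than in *set-26(-)*, by -1.10 ± 0.17 on the log2 scale (edgeR adjusted p = 0.000298), and *lipl-2* was higher, by 0.68 ± 0.17 (edgeR adjusted p = 0.0224). These were 1 lower and 1 higher of 7 members, where 4.46% of all genes were lower and 2.27% higher. The *lipl-2* call was lost without *set-26(-)* replicate 1 or 2 (adjusted p = 0.153 and 0.187). On *hda-1* RNAi *lipl-5* was lower again, by -1.08 ± 0.18 (edgeR adjusted p = 0.00333), and so was *lipl-3*, by -2.02 ± 0.52 (edgeR adjusted p = 0.0456), where 3.46% of all genes were lower. The *lipl-3* call rested on 11 and 9 reads in *hcf-1(-)* against 33 and 35 reads in *set-26(-)*, and leaving out any of these 4 libraries ended it (adjusted p from 0.11 to 0.212).

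At day 12 no member passed in any of the 6 genotype comparisons, by edgeR or by DESeq2. Of 42 tests, 4 had an unadjusted p under 0.05. Among all genes, 3.25% on *hda-1* RNAi and 4.67% on EV were called in *set-26(-)*, 4.31% and 5.81% in *hcf-1(-)*, and 1.36% and 0.838% between the mutants. The control replicates differed from each other at this age by more than most genes did. On EV *lipl-1* had 27.4 and 22.3 CPM in *set-26(-)* and 19.6 and 17.3 CPM in *hcf-1(-)*, against 22.9 and 3.96 CPM in controls. *lipl-2* had 2.87 and 2.85 CPM in *set-26(-)* and 9.89 and 5.58 CPM in *hcf-1(-)*, against 12.6 and 1.64 CPM in controls. Both mutants lay between the control replicates for *lipl-2*. *lipl-5* had 177 and 115 CPM in *set-26(-)* and 129 and 71.5 CPM in *hcf-1(-)*, against 252 and 56.2 CPM in controls.

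Control replicate 2 was the low one for *lipl-1*, *lipl-2*, *lipl-4* and *lipl-5*, with log2 ratios to replicate 1 of -2.53, -2.94, -1.51 and -2.16. The 5th and 95th percentiles of this ratio were -1.01 and 0.92 over the 11410 genes with more than 10 reads in both libraries. Control replicate 2 on *hda-1* RNAi, which carries the same replicate number, was also low, with ratios of -1.62 for *lipl-1*, -1.46 for *lipl-2* and -1.96 for *lipl-5*. The ratio of *lipl-7* was 0.41 on EV and 0.35 on *hda-1* RNAi, inside the range of most genes. In both mutants replicate 2 was also the lower one for *lipl-1*, *lipl-2* and *lipl-5* on both diets. In *hcf-1(-)* on EV *lipl-2* and *lipl-5* had ratios of -0.83 and -0.85, below the 5th percentile of -0.67. On *hda-1* RNAi *lipl-1* and *lipl-5* had -0.85 and -0.92 in *hcf-1(-)*, below -0.77. The ratios of these genes in *set-26(-)* were inside the range of most genes.

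The genotype result at day 12 on EV depended on which control library was kept. Without control replicate 1, *lipl-1* was higher in *set-26(-)* by 2.63 (adjusted p = 0.00159) and in *hcf-1(-)* by 2.19 (adjusted p = 0.00328), and *lipl-2* (2.22) and *lipl-4* were higher in *hcf-1(-)* (edgeR adjusted p = 0.0268 and 0.0424). Without control replicate 2, *lipl-2* was instead lower in *set-26(-)*, by -2.11 (edgeR adjusted p = 0.0201). These fits assume that the lone control library varies like the mutants do.

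**Figure D3:**
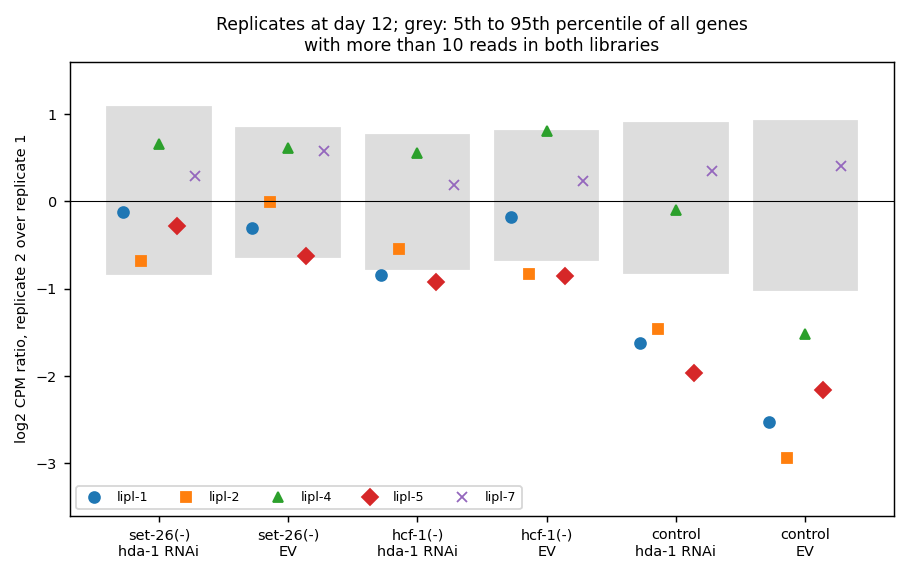
Log2 CPM ratio of replicate 2 to replicate 1 at day 12 for 5 members in each group, with the 5th to 95th percentile of all genes in grey. In control libraries *lipl-1*, *lipl-2* and *lipl-5* fell below the grey range on both diets, with ratios from -2.94 to -1.46. In *hcf-1(-)* *lipl-5* also fell below it on both diets, with *lipl-2* on EV and *lipl-1* on *hda-1* RNAi.

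Intestinal markers were compared because these lipases are known from the intestine. The summed CPM of 7 intestinal markers at day 1 was 2448 to 3584 in *set-26(-)* and 1985 to 2487 in *hcf-1(-)*, against 2091 to 2534 in controls, where *lipl-5* and *lipl-2* were lower in both mutants. The sums at day 3 on EV were 1458 to 1672 in *set-26(-)* and 1203 to 1269 in *hcf-1(-)*, against 1169 to 1201 in controls. On *hda-1* RNAi at day 3 they were 1506 to 1705 in *set-26(-)* and 974 to 1155 in *hcf-1(-)*, against 1144 to 1154 in controls, and 1 *hcf-1(-)* library was below both controls. Among the 7 markers, 1 was lower in *hcf-1(-)* at day 1, *vha-6*, a proton pump subunit of the intestinal surface (-0.88 ± 0.23, edgeR adjusted p = 0.0398), and none passed in *set-26(-)*. In *set-26(-)* at day 3, 2 were higher on *hda-1* RNAi and 3 on EV. The acid phosphatase gene *pho-1* was higher by 1.32 ± 0.20 and 1.25 ± 0.19, the intermediate filament gene *ifb-2* by 1.16 ± 0.21 and 0.85 ± 0.23, and *vha-6* passed on EV (0.62 ± 0.18). None passed in *hcf-1(-)* at day 3. The part of these markers in the lipase results was not tested.

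Some genes of other lysosomal proteins were lower beside the lipases. This list was drawn up with earlier results of these data known, so its shares are a description and no independent support. At day 1, 5 of 13 fell in *set-26(-)* and 6 of 13 in *hcf-1(-)*, where 4.19% and 5.84% of all genes fell, and none of the 13 rose. The deoxyribonuclease gene *nuc-1* was the most affected, at -2.89 ± 0.27 in *set-26(-)* and -3.32 ± 0.28 in *hcf-1(-)* (edgeR adjusted p = 0.00121 and 0.000521). It was followed by the aspartyl protease gene *asp-4*, at -2.56 ± 0.48 and -2.51 ± 0.48, and the cathepsin L gene *cpl-1*, at -1.34 ± 0.23 and -1.93 ± 0.24, in the same order of mutants. At day 3 on EV 5 of 13 fell in *set-26(-)* and 4 of 13 in *hcf-1(-)*, beside 6.04% and 7.29% of all genes, and 1 rose in each. The gene that rose was *ppt-1*, which encodes a palmitoyl protein thioesterase, by 1.69 ± 0.21 and 1.29 ± 0.21. The median over the 13 genes at day 1 was -0.60 in *set-26(-)* and -0.85 in *hcf-1(-)*.

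Regulators were compared with controls in the same way. The list held 12 genes that encode regulators of lysosomal lipolysis or longevity, which include *hlh-30*, *mxl-3*, *daf-16*, *nhr-49* and *nhr-80*. At day 1 none passed in *set-26(-)*, and *skn-1* alone was lower in *hcf-1(-)* (-0.72 ± 0.20, edgeR adjusted p = 0.0467). Of all 12369 genes tested there, 1069 and 1682 passed in either direction. None of the list passed at day 3 on EV in either mutant, where 1779 and 1766 of 12517 genes passed. In *set-26(-)* none passed at day 3 on *hda-1* RNAi either. In *hcf-1(-)* on that diet *mxl-3* was lower (-0.71 ± 0.18, edgeR adjusted p = 0.026) and *pha-4* higher (1.02 ± 0.30, edgeR adjusted p = 0.0493). Of all 12678 genes tested there, 1195 and 1433 passed in the 2 mutants. Whether the list differed from all genes was not tested. RNA levels of regulators do not show their activity.

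The lipid carrier gene *lbp-8*, which acts after *lipl-4*, rose where *lipl-4* did not pass. At day 1 it was higher in *set-26(-)* by 2.85 ± 0.46 (edgeR adjusted p = 0.0103) and in *hcf-1(-)* by 2.23 ± 0.46 (edgeR adjusted p = 0.0183). At day 3 it was higher in *set-26(-)*, by 3.03 ± 0.28 on *hda-1* RNAi and 1.87 ± 0.23 on EV (edgeR adjusted p = 2.42e-05 and 1.92e-05). The related carrier gene *lbp-3* was higher in *set-26(-)* at day 3 by 0.76 ± 0.18 on *hda-1* RNAi and 0.63 ± 0.17 on EV. In *hcf-1(-)* neither carrier passed at day 3. Of the 4 tested of 5 genes of cytosolic lipolysis, *fil-1*, a fasting-induced lipase gene, was lower in *set-26(-)* at day 1 (-1.83 ± 0.40, edgeR adjusted p = 0.0314) and higher in *hcf-1(-)* at day 3, by 1.13 ± 0.26 on *hda-1* RNAi and 0.95 ± 0.25 on EV (edgeR adjusted p = 0.0166 and 0.014), and no other gene of the list passed at these days.

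The comparison of ages asks how these genes change in adult life. On EV, *lipl-1*, *lipl-2* and *lipl-4* rose between days 1 and 3 in all 3 genotypes, and *lipl-2* and *lipl-5* then fell by day 12 to levels below those of day 1. The number of members that rose by day 3 was 3 of 6 in *set-26(-)*, 3 of 7 in *hcf-1(-)* and 3 of 6 in controls, where 16.6%, 14.4% and 4.32% of all genes rose. The count in *set-26(-)* includes *lipl-4*, which passed the filter on low counts only through its day 3 libraries. Summed intestinal markers were lower at day 3 than at day 1, with 1985 to 3584 CPM over the 6 libraries of day 1, 974 to 1705 over the 12 of day 3, and 527 to 1294 over the 12 of day 12. Single markers did not all follow the sum. On EV *act-5* and *ifb-2* were lower at day 3 in all 3 genotypes, while *pho-1* rose in *set-26(-)* and *ges-1* in *hcf-1(-)*. Between days 3 and 12 in controls on EV, *ges-1*, *vha-6* and *pho-1* fell and *ifb-2* rose. The part of these markers in the age results was not tested. Muscle marker sums also fell, with 3798 to 5119 CPM at day 1, 936 to 1357 at day 3 and 432 to 804 at day 12. After day 3 only *unc-54* and *unc-15* of the muscle markers passed in controls on EV, both lower.

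*lipl-4* in *set-26(-)* had 0.552 and 2.32 CPM at day 1, 15.99 and 12.6 CPM at day 3, and 4.96 and 7.60 CPM at day 12 on EV. In *hcf-1(-)* it had 2.79 and 2.30 CPM at day 1, 12.8 and 8.72 CPM at day 3, and 6.19 and 10.8 CPM at day 12. Controls had 4.06 and 2.09 CPM at day 1, 13.6 and 13.5 CPM at day 3, and 5.85 and 2.05 CPM at day 12. Every library of day 3 was thus above every library of day 1. The rise was 3.25 ± 0.48 in *set-26(-)*, 2.07 ± 0.36 in *hcf-1(-)* and 2.14 ± 0.40 in controls on the log2 scale (edgeR adjusted p = 0.000443, 0.0043 and 0.0259). Day 12 was lower than day 3 by -1.19 ± 0.28 in *set-26(-)* and -1.77 ± 0.43 in controls (edgeR adjusted p = 0.00393 and 0.0158), and the value in *hcf-1(-)*, -0.34 ± 0.33, did not pass (edgeR adjusted p = 0.56). Against day 1, day 12 was higher by 2.06 ± 0.56 in *set-26(-)* and 1.72 ± 0.40 in *hcf-1(-)* (edgeR adjusted p = 0.0117 and 0.00487) but not in controls, at 0.34 ± 0.64 (edgeR adjusted p = 0.732). In *set-26(-)* *lipl-4* had 3 and 15 reads at day 1. Against that day it passed the filter on low counts only through the libraries of the later day. The calls of *lipl-4* in *set-26(-)* against day 1 are therefore no independent support. Leaving out control replicate 1 or 2 of day 3 ended both control calls (adjusted p from 0.111 to 0.178). The *set-26(-)* value at day 12 against day 1 did not pass without day 1 replicate 1 (1.41, adjusted p = 0.0814) or day 12 replicate 2 (1.80, adjusted p = 0.0564), and that in *hcf-1(-)* did not pass without day 12 replicate 2 (1.33, adjusted p = 0.0598). The fall in *set-26(-)* after day 3 did not pass without day 3 replicate 1 (-1.02, adjusted p = 0.0933).

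*lipl-1* followed a like course, with the largest estimated rise to day 3 in *set-26(-)*. The difference of that rise from controls did not pass in edgeR, as given below. In *set-26(-)* it had 4.41 and 5.41 CPM at day 1, 47.4 and 33.6 CPM at day 3, and 27.4 and 22.3 CPM at day 12 on EV. Controls had 17.6 and 24.3 CPM, 59.8 and 59.0 CPM, and 22.9 and 3.96 CPM on the same days. The rise to day 3 was 3.04 ± 0.29 in *set-26(-)*, 1.62 ± 0.22 in *hcf-1(-)* and 1.51 ± 0.24 in controls (edgeR adjusted p = 2.21e-05, 0.00132 and 0.0161). The fall after day 3 was -0.71 ± 0.21 in *set-26(-)*, -0.79 ± 0.21 in *hcf-1(-)* and -2.15 ± 0.58 in controls (edgeR adjusted p = 0.017, 0.023 and 0.0239). At day 12 *lipl-1* was above its day 1 level in *set-26(-)*, by 2.31 ± 0.30, and in *hcf-1(-)*, by 0.82 ± 0.24 (edgeR adjusted p = 0.000117 and 0.0185), while controls had -0.68 ± 0.72 (edgeR adjusted p = 0.525). Without control replicate 1 of day 12 the control value was -2.35 (adjusted p = 0.024). Each of the 3 falls after day 3 and the *hcf-1(-)* gain over day 1 lost its call without at least 1 of its libraries (adjusted p up to 0.265), as did the control rise without either day 3 library (adjusted p = 0.149 and 0.150).

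The difference in age effect between mutants and controls was tested as an interaction. For day 12 against day 1 it was 2.94 ± 0.78 for *lipl-1* in *set-26(-)* (edgeR adjusted p = 0.063), and no member passed in either mutant. Of 14 such tests, 3 had an unadjusted p under 0.05, and DESeq2 called 1, *lipl-1* in *set-26(-)* (3.01, adjusted p = 0.00343). Among all genes 3.43% were called in *set-26(-)* and 5.05% in *hcf-1(-)*. Without control replicate 1 of day 12, edgeR called *lipl-1*, *lipl-2* and *lipl-5* in both mutants, with differences between 2.87 and 4.72, and without control replicate 2 it called *lipl-1* in *set-26(-)* alone (2.20, adjusted p = 0.0265). The same test for other pairs of days was added after the values were seen. It called no member in 42 tests by edgeR, of which 13 had an unadjusted p under 0.05, and DESeq2 called 2, *lipl-1* in *set-26(-)* for day 3 against day 1 and *lipl-5* in *hcf-1(-)* for day 12 against day 3 on *hda-1* RNAi. The last was also called with the replicate block (2.12, adjusted p = 0.0232). Without control replicate 1 of day 12 on EV, *lipl-1*, *lipl-2* and *lipl-5* were called in both mutants for day 12 against day 3, by 2.48 to 3.27. Among all genes 0.543% in *set-26(-)* and 0.603% in *hcf-1(-)* were called for day 3 against day 1. For day 12 against day 3 these shares were 3.2% and 3.19% on EV, with 2% and 3.08% under *hda-1* RNAi. The difference for *lipl-1* between days 3 and 1 was 1.53 ± 0.35 in *set-26(-)* (edgeR adjusted p = 0.0781).

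*lipl-2* and *lipl-5* fell in all 3 genotypes between days 3 and 12. *lipl-2* in *set-26(-)* had 14.3 and 22.9 CPM at day 1, 57.6 and 55.4 CPM at day 3, and 2.87 and 2.85 CPM at day 12 on EV. In controls it had 84.2 and 104.1 CPM, 197 and 165 CPM, and 12.6 and 1.64 CPM. Every library of day 12 was below every library of day 1 in each genotype. Day 12 was lower than day 3 by -4.30 ± 0.23 in *set-26(-)*, -3.53 ± 0.27 in *hcf-1(-)* and -4.66 ± 0.67 in controls (edgeR adjusted p from 2.15e-09 to 0.00137). The rise from day 1 to day 3 was smaller, 1.60 ± 0.25 in *set-26(-)*, 1.34 ± 0.18 in *hcf-1(-)* and 0.95 ± 0.21 in controls (edgeR adjusted p = 0.000638, 0.00121 and 0.0394). The control rise did not pass when replicate numbers were blocked (adjusted p = 0.0781) or without either day 3 library (adjusted p = 0.203 and 0.315).

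*lipl-5* differed from *lipl-2* in having no called change between days 1 and 3. The values were 0.55 ± 0.24 in *set-26(-)*, 0.28 ± 0.18 in *hcf-1(-)* and 0.30 ± 0.19 in controls (edgeR adjusted p = 0.111, 0.308 and 0.382), and with the replicate block the *set-26(-)* value passed (0.57, adjusted p = 0.0384), as it did without day 1 replicate 2 (0.79, adjusted p = 0.0032). Day 12 was lower than day 3 by -2.58 ± 0.23 in *set-26(-)*, -2.01 ± 0.27 in *hcf-1(-)* and -3.79 ± 0.61 in controls (edgeR adjusted p from 4.81e-07 to 0.00244). The control value was -3.70 (adjusted p = 0.0529) without day 3 replicate 1. The spread of *lipl-5* between genotypes at day 3, from 369 to 2222 CPM, gave way to 56.2 to 252 CPM at day 12, where the genotypes overlapped.

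On EV between days 3 and 12, 5 of 6 members tested fell in *set-26(-)*, 3 of 7 in *hcf-1(-)* and 4 of 5 in controls, where 18.8%, 10.7% and 16.2% of all genes fell. The fifth in *set-26(-)* was *lipl-3*, with 12 and 5 reads at day 12 against 37 and 33 reads at day 3, which passed the filter on low counts through its day 3 libraries. Between days 1 and 12, *lipl-1* and *lipl-4* rose and *lipl-2* and *lipl-5* fell in *set-26(-)* and in *hcf-1(-)*, where 20.9% and 19.2% of all genes rose and 21.1% and 20.5% fell. In *set-26(-)* *lipl-4* passed the filter on low counts there only through its day 12 libraries. In controls *lipl-2* and *lipl-5* fell, by -3.74 ± 0.80 and -3.50 ± 0.71 (edgeR adjusted p = 0.0195 and 0.0164), where 15% of all genes fell. *lipl-3* was called lower as well, with 2 and 5 reads at day 12 against 25 and 21 reads at day 1, but it passed the filter only through its day 1 libraries and lost the call without control replicate 1 of day 12 (adjusted p = 0.0903). *lipl-7* did not pass in any of the 12 age comparisons, and with the replicate block it passed in *hcf-1(-)*, higher at day 3 than at day 1 by 0.73 (adjusted p = 0.00663) and lower at day 12 than at day 3 by -0.56 (adjusted p = 0.0471). Without day 1 replicate 2, its rise to day 3 passed in all 3 genotypes, by 0.69 in *set-26(-)*, 1.10 in *hcf-1(-)* and 0.88 in controls (edgeR adjusted p = 0.0114, 0.00697 and 0.00659).

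**Figure D4:**
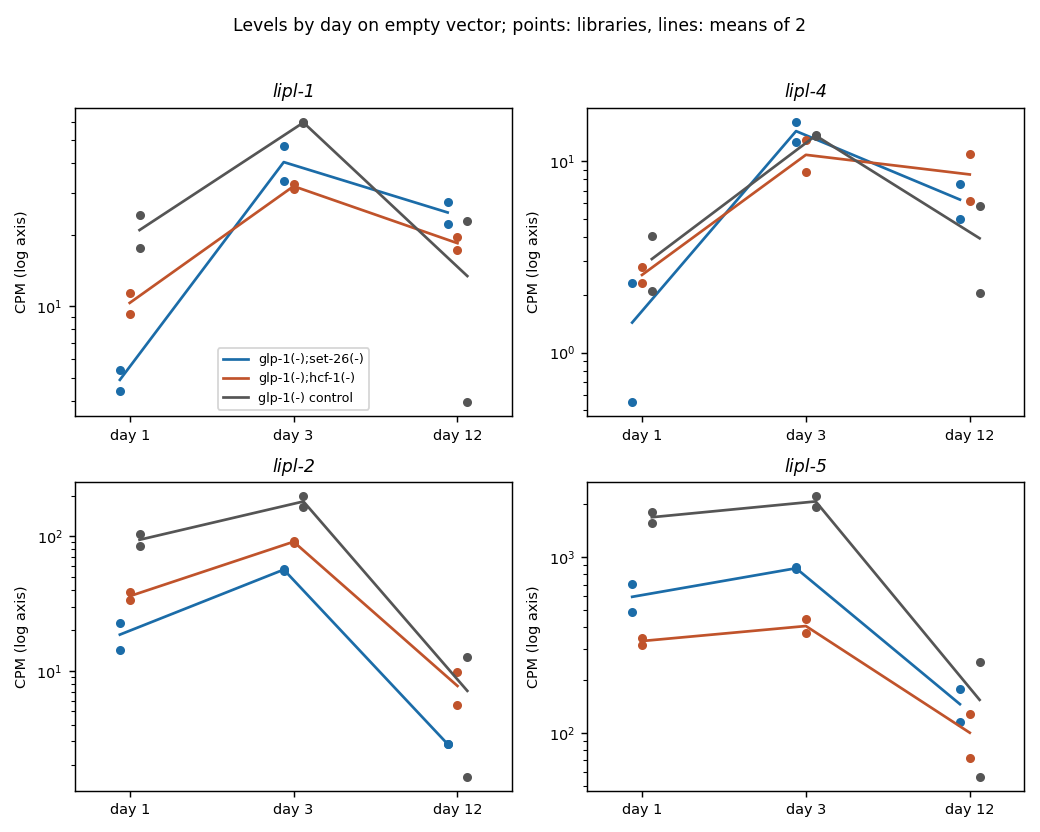
CPM of *lipl-1*, *lipl-4*, *lipl-2* and *lipl-5* at days 1, 3 and 12 on EV, on log axes. Points are libraries and lines join means of 2. *lipl-1* and *lipl-4* peaked at day 3, and *lipl-2* and *lipl-5* were lowest at day 12.

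The fall with age was also seen on *hda-1* RNAi. Between days 3 and 12, 4 of 6 members tested fell in *set-26(-)*, 2 of 7 in *hcf-1(-)* and 4 of 6 in controls, where 16.6%, 10.6% and 20.8% of all genes fell. *lipl-5* fell by 3.42 ± 0.25 in *set-26(-)*, 2.55 ± 0.30 in *hcf-1(-)* and 4.67 ± 0.52 in controls on the log2 scale (edgeR adjusted p from 2.42e-05 to 0.000171). *lipl-2* fell by 3.67 ± 0.33, 3.22 ± 0.26 and 4.19 ± 0.38 in the same order. The count in *set-26(-)* includes *lipl-3*, which had 10 and 10 reads at day 12 against 33 and 35 reads at day 3 and entered through day 3. *lipl-4* passed in *set-26(-)* and in controls, at -1.62 ± 0.36 and -1.78 ± 0.30, and *lipl-1* passed in controls at -1.90 ± 0.40. With the replicate block *lipl-1* passed in *set-26(-)* as well (-0.53, adjusted p = 0.0491). The *lipl-4* call in *set-26(-)* was lost without day 3 replicate 2 (adjusted p = 0.0525), and the *lipl-1* call in controls without day 3 replicate 1 (adjusted p = 0.057).

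Genes of the list of other lysosomal proteins, drawn up with earlier results known, were followed over the same interval. On EV, 7 of 13 were lower at day 12 than at day 3 in *set-26(-)*, 5 of 13 in *hcf-1(-)* and 6 of 13 in controls, beside 18.8%, 10.7% and 16.2% of all genes, and 1, 0 and 1 of the list were higher. In controls these were led by the aspartyl protease gene *asp-3* (-3.37 ± 0.54), the acid ceramidase gene *asah-1* (-3.02 ± 0.45) and *asp-4* (-2.63 ± 0.30). *lbp-8* was lower too, by -4.58 ± 0.24 in *set-26(-)*, -1.37 ± 0.31 in *hcf-1(-)* and -2.97 ± 0.33 in controls. Of the 12 regulators, 2 were lower and 1 higher in *set-26(-)*, 1 was lower in *hcf-1(-)* and 3 were lower in controls, beside the shares of all genes that fell given above. In either direction, 4420 of 12867 genes tested passed in *set-26(-)*, 2300 of 13224 in *hcf-1(-)* and 3476 of 12157 in controls. *nhr-80* was lower at day 12 in all 3 genotypes, by -0.92 ± 0.18 in *set-26(-)*, -0.68 ± 0.21 in *hcf-1(-)* and -1.20 ± 0.33 in controls. *mxl-3* was lower in *set-26(-)* (-1.20 ± 0.19) and controls (-1.37 ± 0.35). *nhr-49* was lower in controls (-0.79 ± 0.25), and *daf-12* was higher in *set-26(-)* (0.63 ± 0.17).

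Libraries labelled *hda-1* RNAi were compared with EV libraries of the same genotype and day, to ask whether HDA-1 is needed for the levels of these genes. No member passed in the 6 comparisons by edgeR or by DESeq2, and 2 of 37 tests had an unadjusted p under 0.05. Few genes passed at all, 0.099% in *set-26(-)*, 0.0159% in *hcf-1(-)* and 0.0434% in controls at day 3, and 1.21%, 5.38% and 0.988% at day 12. At day 3 the differences of *lipl-5* were 0.01 ± 0.17 in *set-26(-)*, 0.02 ± 0.22 in *hcf-1(-)* and -0.23 ± 0.13 in controls, and those of *lipl-4* were -0.35 ± 0.25, -0.09 ± 0.30 and -0.12 ± 0.24.

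At day 12 *lipl-5* was the member with the most regular difference. In *set-26(-)* it had 88.9 and 73.0 CPM on *hda-1* RNAi, against 177 and 115 CPM on EV. In *hcf-1(-)* it had 89.2 and 47.0 CPM on *hda-1* RNAi, against 129 and 71.5 CPM on EV. In controls it had 112 and 28.8 CPM on *hda-1* RNAi, against 252 and 56.2 CPM on EV. Populations were split between the diets at day 1, and libraries were paired by replicate number, a match the labels do not state. The *hda-1* RNAi library was the lower of the pair in 6 of 6 pairs, although the replicates overlapped between diets in *hcf-1(-)* and in controls. The differences were -0.81 ± 0.27 in *set-26(-)*, -0.53 ± 0.35 in *hcf-1(-)* and -1.10 ± 0.77 in controls without the pairing (edgeR adjusted p = 0.191, 0.479 and 0.666). Blocking on replicate number, they were -0.79, -0.53 and -1.05 and all passed (edgeR adjusted p = 0.00178, 0.000461 and 2.45e-06), in fits that also raised the number of all genes called to 2202, 3074 and 1678, against 161, 756 and 128 without it. These fits leave a single residual degree of freedom. Without *hcf-1(-)* replicate 1 on *hda-1* RNAi, the unpaired *hcf-1(-)* value passed (-1.04, adjusted p = 0.0189). No other member passed with the block, and the differences in *hda-1* RNAi effect between mutants and controls were called for no member in 28 tests by edgeR or DESeq2, with 1 unadjusted p under 0.05, and 0% of all genes were called. Intestinal marker sums at day 12 were 679 to 810.0 CPM in *set-26(-)*, 527 to 538 in *hcf-1(-)* and 658 to 736 in controls on *hda-1* RNAi, against 737 to 791, 660 to 673 and 940 to 1294 CPM on EV, and their part in the *lipl-5* difference was not tested.

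**Figure D5:**
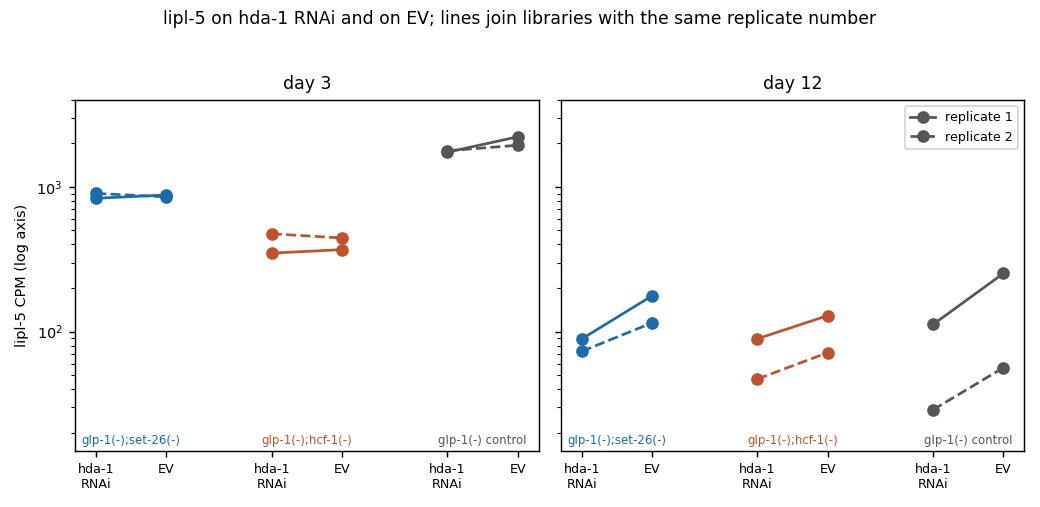
CPM of *lipl-5* on *hda-1* RNAi and on EV at days 3 and 12, on a log axis. Lines join libraries with the same replicate number, solid for replicate 1 and dashed for replicate 2. At day 12 all 6 lines rise toward EV, with levels of 28.8 to 112 CPM on *hda-1* RNAi and 56.2 to 252 CPM on EV.

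Across the 15 group means of log2 CPM, *lipl-2* and *lipl-5* were most alike among the members (Pearson r = 0.89), followed by *lipl-1* and *lipl-4* (r = 0.88). These are descriptions over groups that share strains and days. Among 9274 genes with a mean of at least 5 CPM, the genes most like *lipl-5* were *cdr-6*, *Y51F10.7* and *nstp-10* (r from 0.97 to 0.98), and those most like *lipl-2* were *aat-1*, *aagr-1* and *F59C6.16* (r from 0.97 to 0.98). *lipl-1* was nearest to *msa-1*, *F37C12.10* and *cest-17* (r from 0.92 to 0.94), and *lipl-4* to *F56D6.8*, *ptr-8* and *mrpl-34* (r from 0.94 to 0.95). *lipl-7* was nearest to *clec-145*, *ctns-1*, the cystine exporter of the lysosome, and *swt-1* (r from 0.86 to 0.88). For the genes with few reads the likeness was lower, with *ZC328.3*, *F59C6.18* and *col-95* nearest to *lipl-3* (r from 0.89 to 0.90) and *F55B12.10*, *npp-1* and *rab-11.2* nearest to *lipl-6* (r from 0.84 to 0.88).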

How the data were processed

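RNA levels were measured by QuantSeq in 30 libraries, grouped by the genotype, diet and day in their labels. The authors trimmed reads with Trim Galore 0.6.5, aligned them to WBcel235 with STAR 2.7.9a, kept uniquely mapped reads and deposited raw counts per gene, by strand. The annotation release they counted on is not given in the sources used here. Positions come from the Ensembl annotation of WBcel235, which held 46924 of 46934 IDs.

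Fits used edgeR 4.0.16 under R 4.3.3 (TMM, quasi-likelihood F test, Benjamini-Hochberg adjustment over all genes tested). Genes entered a fit with over 10 reads in 2 or more of its libraries. The SE is the log2 fold change divided by the square root of F. Genotypes were compared in the 6 libraries of 1 day and diet, diets and ages in the 4 libraries of 1 genotype, and interactions in 12. P-values measure the spread between these libraries. Counts have no molecular identifiers, so floors of 3 reads cover counting error only. The fits were also run on simulated counts in which only well-covered genes were given a change, so that run does not cover members with few reads.

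Each day 1 population was split between diets and aged further. Libraries with the same replicate number were therefore taken as pairs of diets and ages within a genotype, though the labels do not state this match. Mutants and controls carry the same replicate numbers, and the labels do not say whether these were grown together. Deviations of same-numbered libraries correlated at 0.16 to 0.46 between diets and -0.04 to 0.35 between ages. Alternatives were DESeq2 1.42.0, its size factors in edgeR, no filter, all 30 libraries in 1 fit, the replicate block, and leaving out each replicate. Named genes were all 7 members, up to 3 called genes per pathway list and comparison with the largest change and a mean of at least 50 reads, and the 3 nearest genes per member by Pearson r. The members and lists were chosen with earlier results of these data known.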

Additional observations from a re-analysis of the deposited data

How the results depend on the processing

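Of 64 called values of single members, 35 were called under every alternative run and none reversed. Over 570 alternative values, 63 lost their call, of which 44 came from leaving out 1 library and 15 from fitting all 30 libraries together. DESeq2 size factors ended no call. In the fit of all 30 libraries, calls in *set-26(-)* against controls numbered 5, against 9 in the separate fits, and those between the mutants numbered 0, against 4, and the cause was not tested. For *hda-1* RNAi against EV, calls numbered 2 with no filter on low counts and 3 with the replicate block, against 0. For the difference in age effect they numbered 1 by DESeq2, 5 with no filter and 1 with all 30 libraries, against 0, and the cause was not tested. Leaving out 1 library gave 7 to 10 calls in *set-26(-)* against controls, 8 to 12 in *hcf-1(-)* against controls (main 9), 3 to 4 between the mutants, 0 to 1 for *hda-1* RNAi, 36 to 45 for age (main 42), 0 for the difference in *hda-1* RNAi effect and 0 to 6 for the difference in age effect, where 6 came without control replicate 1 of day 12 on EV.

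Whether mutants and controls with the same replicate number were grown together is not stated in the labels. With the replicate block, calls against controls numbered 11 in each mutant, against 9, and those between the mutants stayed at 4, with correlations of same-numbered libraries of -0.04 to 0.41. The calls added were *lipl-1* in *hcf-1(-)* at day 1 and in *set-26(-)* at day 3 on EV, *lipl-6* in *hcf-1(-)* at day 3 on *hda-1* RNAi, and *lipl-2* in *set-26(-)* at day 12 on *hda-1* RNAi (-1.27, edgeR adjusted p = 0.0146). Apart from these and the values given in the text, the block changed no call. With no filter, calls were added against controls at day 12 for *lipl-1* and *lipl-2* in *set-26(-)* and *lipl-4* in *hcf-1(-)* on EV and *lipl-2* in *set-26(-)* on *hda-1* RNAi. *lipl-7* was called in no comparison with controls under any of 100 settings and comparisons run, and *lipl-4* in 2. Depth limits *lipl-3* and *lipl-6*, with at most 37 and 35 reads, and *lipl-4* at day 1.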

Other observations

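An eighth family member, *lipl-8*, lies outside the set followed here and was looked at after its values were seen. It had 0 or 1 read in the 6 libraries of day 1. At day 3 it had 34 and 33 reads in *set-26(-)*, 31 and 8 in *hcf-1(-)* and 8 and 25 in controls on *hda-1* RNAi, against 0 and 0, 6 and 0, and 0 and 0 on EV. With a floor of 3 reads per library, *set-26(-)* was at least 11.7-fold higher on *hda-1* RNAi than on EV. At day 12 on EV it had 3 and 3 reads in *set-26(-)* and 1 and 0 reads in *hcf-1(-)*, against 32 and 16 reads in controls. On *hda-1* RNAi at day 12 it had 13 and 15 reads in *set-26(-)* and 29 and 15 in *hcf-1(-)*, against 46 and 48 in controls. No test is given, since the gene was picked for these values, and in *set-26(-)* at day 3 and among genotypes at day 12 on EV it passed the filter on low counts only through the group where it was high.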
